A study of Homo sapiens with 32 samples.

Results

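New transcription of the HOX genes, which code for the homeodomain transcription factors that give positions along the body axis their identity, was followed through the first hours after mitosis in HUH7, a long-established human hepatoma cell line. The genes described are the protein-coding genes of the 4 HOX clusters, chosen by symbol (HOXA, HOXB, HOXC or HOXD followed by a number) among RefSeq mRNAs. They are 36 of the 24242 genes in the table, with 11 HOXA, 8 HOXB, 9 HOXC and 8 HOXD genes. RefSeq lists 39 genes of this kind, and HOXB1, HOXB2 and HOXD12 were not analysed here.

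Every group was made of HUH7 cells given 0.5 mM 5-ethynyl uridine (EU), a uridine analogue that enters RNA as it is made, for 40 minutes. The 6 release groups had passed through 24 hours in 2 mM thymidine, 2 hours without it and 16 hours in nocodazole, a spindle poison, at 0.06 ug/mL. Mitotic cells were then dislodged by shaking, plated again without drug and labelled 0, 40, 80, 105, 165 or 300 minutes later. The asynchronous culture had neither drug, so cell cycle stage and exposure to the block cannot be told apart where it is compared with a release group. No source used here says whether a stated time is the start or the end of the pulse. By the labels each of these 7 groups had 3 samples, but each group enters as 1 pooled FPKM value of the authors (fragments per kilobase of transcript, scaled to the mapped total). No difference below has a replicate error or a replicate check, and no test could be run. FPKM are shares of the captured RNA, so a lower value can mean less of a transcript or more of the others.

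HOX genes lie in 4 clusters on different chromosomes. Within a cluster all genes point the same way, and their order follows the order in which they are used along the head to tail axis, with low paralogue numbers used toward the head and high numbers toward the tail. In differentiated cells a cluster, or a stretch of one, is kept either open and transcribed or covered by Polycomb complexes and silent, and this pattern is passed through cell division. The proteins bind DNA with partners of the TALE family such as PBX and MEIS.

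The 4 clusters fell into a transcribed pair and a nearly silent pair. A gene was kept for comparisons if it had at least 1 FPKM in at least 3 of the 7 groups. All 11 HOXA and all 9 HOXC genes passed, with 6 of 8 HOXD genes and 2 of 8 HOXB genes, 28 in all. The lowest HOXA value in any group was 7.71 FPKM and the highest 631 FPKM. HOXC values ran from 0 to 318 FPKM, with a single 0 among 63 values. The 8 HOXD genes never passed 7.85 FPKM, and 16 of their 56 values were 0. Of the 8 HOXB genes, HOXB7 alone passed 10 FPKM in any group, and 22 of the 56 HOXB values were 0. The 8 genes below the filter were HOXB3, HOXB4, HOXB5, HOXB6, HOXB8, HOXB13, HOXD4 and HOXD8.

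**Figure D1:**
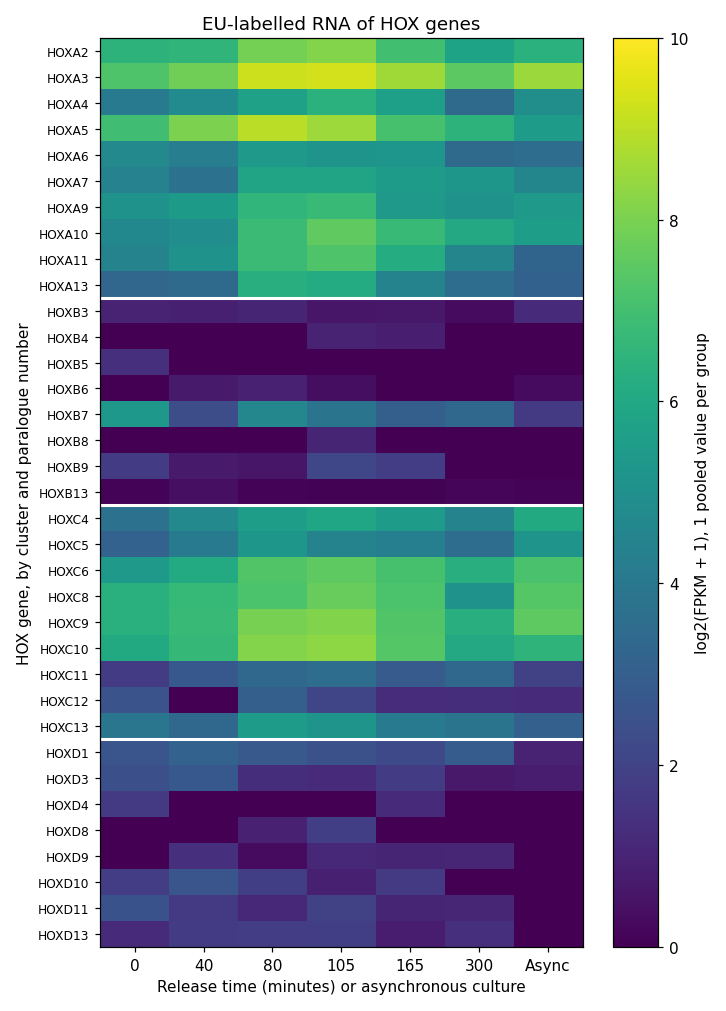
Colour gives log2(FPKM + 1), the authors' pooled value, for the HOX genes shown (rows, ordered by cluster and paralogue number) in the 6 release times and the asynchronous culture (columns). HOXA and HOXC rows brighten at 80 and 105 minutes, while HOXB rows other than HOXB7 and all HOXD rows stay below 8 FPKM.

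Summed over its genes, the HOXA cluster stood at 660 FPKM at 0 minutes, 972 at 40, 2340 at 80, 2329 at 105, 1172 at 165 and 602 at 300 minutes, with 801 FPKM in the asynchronous culture. The HOXC sum followed the same course, with 309, 439, 969, 1107, 683 and 306 FPKM over the release and 689 FPKM in the asynchronous culture. The asynchronous value lay between the 0 and 40 minute values in HOXA, and close to the 165 minute value in HOXC. The HOXD sum had no such crest, at 20.6, 24.9, 15, 16.0, 12.3 and 10.9 FPKM, and it was 1.61 FPKM in the asynchronous culture.

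The depth behind these values can be judged from the table itself. FPKM here appears to be taken over the whole transcribed span, introns included, and low values repeat in steps, where 1 step over a span of 1 kb is worth 4.06 FPKM at 0 minutes, 2.73 at 80 minutes and 2.18 in the asynchronous culture. If a step is 1 fragment, HOXC10 rested on 82.2 fragments at 0 minutes and 526 at 80 minutes. HOXA13 rested on 12.4 and 161, HOXC11 on 2.62 and 15.2, and the 9 HOXB and HOXD genes with a known span other than HOXB7 on at most 6.57 in any group. Of 42 member values between 0 and 5.5 steps, 25 lay within 0.1 of a whole number. Depth relative to 0 minutes was 1.49 at 80 minutes and 1.87 in the asynchronous culture, so a 0 is less telling in the early columns. A 0 for a HOXB or HOXD gene means that it was listed at 0, not that it was silent.

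The time of the HOXA and HOXC crest was shared by every gene of both clusters, but not its size. The release maximum was at least 2-fold above 300 minutes in 18 of 20 genes, against 21.7% of all kept genes. HOXC11 stood at 10.8 FPKM at 105 minutes and still at 9.01 FPKM at 300 minutes. All 11 HOXA genes and all 9 HOXC genes had the highest value of the release at 80 or 105 minutes, 7 at 80 and 13 at 105. Over all 22940 kept genes, 35.6% had their highest value at one of these times. The count was 11 of 11 and 9 of 9 also after quantile normalization of the 7 columns and after scaling them to equal medians, where the share over all genes was 24.6% and 25.4%. Of the kept HOXD genes, 1 of 6 peaked there, and 4 of 6 had their highest value at 40 minutes. Neighbouring genes in a cluster are transcribed near each other and share regulatory sequence, so the 20 genes are not independent of one another.

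**Figure D2:**
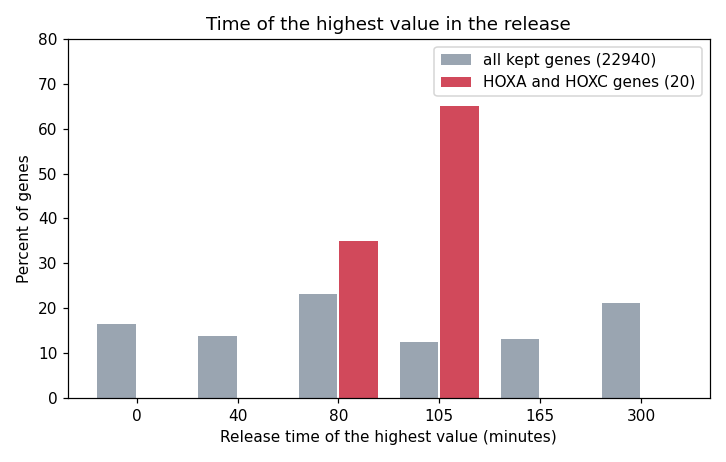
Bars give the percent of genes whose highest FPKM of the release fell at each time, for all 22940 kept genes (grey) and for the 20 HOXA and HOXC genes (red). Red bars stand at 80 and 105 minutes alone, with 7 and 13 genes.

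The rise began slowly. From 0 to 40 minutes 4 of the 28 kept HOX genes were at least 2-fold higher (HOXA5, HOXC5, HOXC11 and HOXD9), against 3.24% of all kept genes, and 2 were at least 2-fold lower (HOXB7 and HOXC12), against 2.05%. With columns scaled to equal medians the counts were 1 and 3, and HOXA5, HOXC5 and HOXC11 were under 2-fold. All folds are ratios of FPKM + 1, which understates the change of low genes. From 40 to 80 minutes 16 of 28 were at least 2-fold higher, against 13.5% of all kept genes, with 9 HOXA genes, 6 HOXC genes and HOXB7, and HOXD3 and HOXD9 were at least 2-fold lower, 2 of 28 against 2.72%. With equal medians these counts were 10 and 3. From 0 to 80 minutes the count was 17 of 28, against 20.1%, with 10 of 11 HOXA genes, 7 of 9 HOXC genes and no HOXB or HOXD gene. HOXB9, HOXD3 and HOXD11 were at least 2-fold lower, 3 of 28 against 2.65%. The HOXA and HOXC genes below 2-fold were HOXA6, HOXC8 and HOXC12, at 1.59-fold, 1.75-fold and 1.38-fold. The median log2 difference over this interval was 1.62 for HOXA and 1.60 for HOXC, and 0.31 over all kept genes.

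The largest rise belonged to HOXA13, the last gene at the tail end of its cluster, which is needed for digits and the genital tract. HOXA13 stood at 8.77 FPKM at 0 minutes, 9.93 at 40, 76.6 at 80, 70.7 at 105, 21.0 at 165 and 10.9 at 300 minutes, with 7.71 FPKM in the asynchronous culture. The 80 and 105 minute values thus stood far above the other 5, which were all within 7 to 21 FPKM. The rise from 0 to 80 minutes was 7.95-fold. HOXA11, which patterns the forearm and the uterus, rose 5.06-fold, from 21.1 FPKM at 0 minutes to 33.4 at 40, 111 at 80 and 152 at 105 minutes, and returned to 71.7 and 22.6 FPKM at 165 and 300 minutes. HOXA11 was at 8.44 FPKM in the asynchronous culture, below all 6 release times. HOXA10, which acts in the uterus and in blood progenitors, moved from 24.7 and 29 FPKM at 0 and 40 minutes to 113 at 80 and 186 at 105 minutes, and came down to 108 FPKM at 165 and 65.0 FPKM at 300 minutes, with 47.7 FPKM in asynchronous cells.

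HOXA2, HOXA3 and HOXA5, of the head end and middle, had high values. HOXA3, which is needed for the thymus and parathyroid, had the highest mean and the highest peak of all members. HOXA3 stood at 151, 225, 602, 631, 379 and 180 FPKM over the release and 358 FPKM in the asynchronous culture. HOXA5, which is needed for lung and for the axial skeleton at the base of the neck, had 123, 257, 494, 374, 134 and 87.8 FPKM over the release but 45.0 FPKM in the asynchronous culture. HOXA5 was thus above the asynchronous culture at every release time, whereas HOXA3 was below it at 0, 40 and 300 minutes. HOXA2, which sets the identity of a branchial arch, had 86.7, 93.3, 239, 281, 126 and 54.3 FPKM over the release and 82.3 FPKM in the asynchronous culture, with 80 and 105 minutes as the only times above 130 FPKM.

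HOXA4, HOXA6, HOXA7 and HOXA9 were lower than HOXA2, HOXA3 and HOXA5 and kept the crest. HOXA4 reached 82.0 FPKM at 105 minutes, HOXA7 reached 56.8 FPKM and HOXA9, a gene known for its part in leukaemia, reached 106 FPKM at the same time. HOXA6 was the least regular, at 25.3, 18.5, 40.7, 35.6, 36.8 and 10.1 FPKM over the release, with 165 minutes as high as 105. HOXA7 fell least after its peak, to 38.7 FPKM at 300 minutes, and was the single HOXA gene less than 2-fold lower at 300 than at 105 minutes.

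In HOXC the highest genes were those of the middle and tail. HOXC10, which is used at lumbar levels, had 65.6, 101, 281, 318, 161 and 64.4 FPKM over the release and 90.9 FPKM in the asynchronous culture. HOXC9, a gene of thoracic identity in the spinal cord, had 80.8, 110, 244, 274, 155 and 76.3 FPKM over the release and 182 FPKM in the asynchronous culture. Both showed the crest, but only HOXC10 went at least 2-fold above the asynchronous culture at 105 minutes, at 3.47-fold against 1.5-fold for HOXC9. HOXC8, its neighbour, also of thoracic identity, had 79.9, 103, 141, 205, 145 and 32.9 FPKM over the release and 162 FPKM in the asynchronous culture, the smallest rise from 0 to 80 minutes of the HOXC genes above 10 FPKM and the steepest fall from 105 to 300 minutes, 6.08-fold. HOXC13, which drives hair keratin genes, had 14.1, 9.13, 44.8, 35.6, 16.0 and 13.5 FPKM over the release and 7.39 FPKM in the asynchronous culture. HOXC11 and HOXC12 were low, at 2.35 to 10.8 FPKM and 0 to 7.21 FPKM, and HOXC12 was listed at 0 at 40 minutes.

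The head end of HOXC is one overlapping transcription unit in the annotation. By the spans used here, the transcripts of HOXC4 and HOXC5, and of HOXC4 and HOXC6, overlap, and no other members do. Fragments there may thus be shared between genes. RefSeq also places HOXA3 starts upstream of the HOXA4 and HOXA6 starts, so HOXA3 transcripts may run across those genes. Sharing of fragments in HOXA was not tested. HOXC6 had 40.5, 68.8, 155, 181, 135 and 76.8 FPKM over the release and 141 FPKM in the asynchronous culture. HOXC4 had 12.7, 25.2, 48.0, 57.4, 43.9 and 20.9 FPKM, and 65.9 FPKM in the asynchronous culture. Averaged over its transcripts, it was the single HOXA or HOXC gene with no release time above the asynchronous value. Its higher transcript alone stood at 82.9 FPKM at 105 minutes and 78.4 FPKM in the asynchronous culture. HOXC5 had 7.80, 16.6, 38.6, 21.3, 18.8 and 10.8 FPKM over the release and 35.4 FPKM in the asynchronous culture. All 3 were lowest at 0 minutes.

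**Figure D3:**
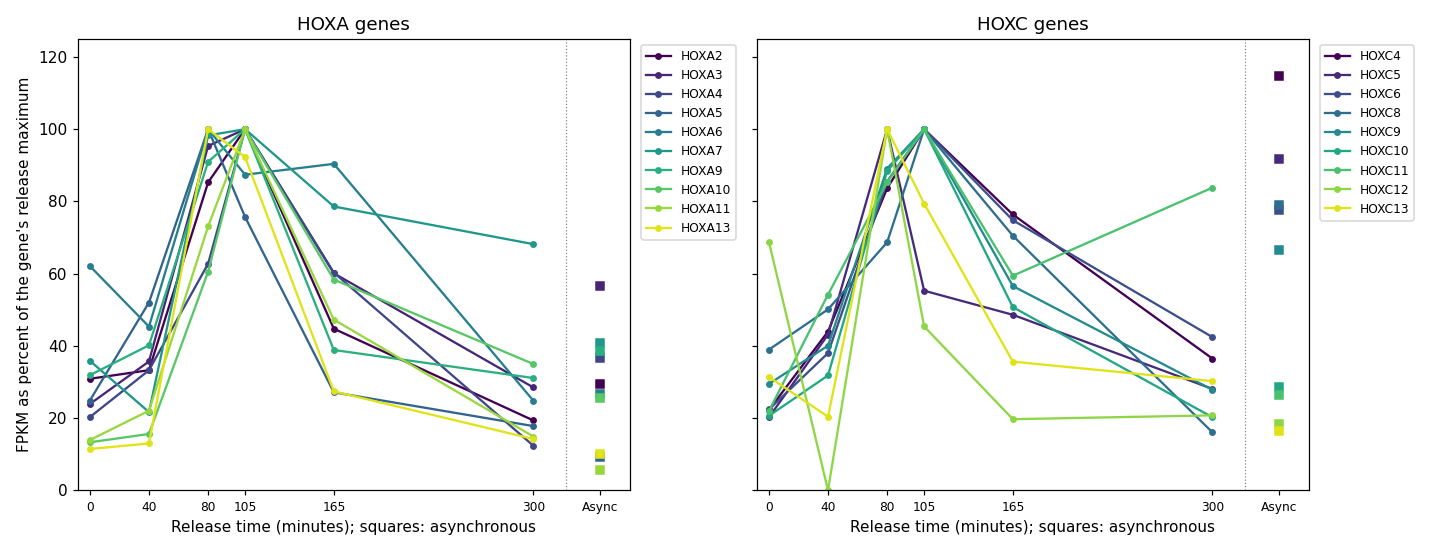
Each line is 1 gene, with FPKM as percent of its highest release value (vertical axis) against release time in minutes (horizontal axis), for HOXA genes (left) and HOXC genes (right), coloured from low to high paralogue number. Squares give the asynchronous culture on the same scale. All lines reach 100 percent at 80 or 105 minutes, and HOXC4, averaged over its transcripts, alone has its square above 100 percent.

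The crest was level between 80 and 105 minutes for most genes. HOXB9 alone was at least 2-fold higher at 105 than at 80 minutes, 1 of 28 against 2.02% of all kept genes, at 0.51 and 3.36 FPKM, or about 1 and 6.57 fragments. None of the 28 was at least 2-fold lower, against 2.57%. From 105 to 165 minutes 8 of 28 were at least 2-fold lower, against 5.27%, with 6 HOXA genes, HOXC13 and HOXD13. From 165 to 300 minutes 12 of 28 were at least 2-fold lower, against 4.10%. None of the 28 was at least 2-fold higher in either interval, against 2.27% and 3.04% of all kept genes, though 1 was from 105 to 165 minutes after quantile normalization. Over the whole descent from 105 to 300 minutes, a comparison added after the values were seen, 17 of 28 were at least 2-fold lower, against 10.6% of all kept genes, with 10 of 11 HOXA and 6 of 9 HOXC genes. The median log2 difference was -1.97 for HOXA, -1.33 for HOXC and -0.11 over all kept genes. The steepest falls in HOXA were those of HOXA4, at 7.48-fold, and HOXA11, at 6.47-fold.

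At 300 minutes more of the genes were 2-fold below 0 minutes than 2-fold above. Against 0 minutes 3 of 28 were at least 2-fold higher (HOXA10, HOXC11 and HOXD9), against 18.9% of all kept genes. At least 2-fold lower were 8 of 28 (HOXA6, HOXB7, HOXB9, HOXC8, HOXC12, HOXD3, HOXD10 and HOXD11), against 8.82%. With equal medians the counts were 2 and 11. The median log2 difference of 300 against 0 minutes was -0.03 in HOXA and -0.03 in HOXC (0.24 in HOXC after quantile normalization), with 0.21 over all kept genes.

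The asynchronous culture separated the clusters. At 0 minutes 11 of 28 HOX genes were at least 2-fold higher than in the asynchronous culture, against 14.1% of all kept genes, and 6 were at least 2-fold lower, against 19.0%. With columns scaled to equal medians these counts were 12 and 3, and after quantile normalization 8 and 3. The 6 lower genes were HOXA3, HOXC4, HOXC5, HOXC6, HOXC8 and HOXC9, and HOXA3, HOXC8 and HOXC9 were less than 2-fold lower after either scaling. The higher genes were HOXA5, HOXA6, HOXA11, HOXB7, HOXB9, HOXC12, HOXD1, HOXD3, HOXD10, HOXD11 and HOXD13, of which HOXA6, HOXA11 and HOXC12 were under 2-fold after quantile normalization. Of the 11, HOXB9, HOXD10, HOXD11 and HOXD13 were listed at 0 in the asynchronous culture. HOXD1 and HOXD3 were below 1 FPKM there, at 0.93 and 0.68 FPKM. All of these passed the filter through release groups alone. With 1 FPKM added to each value, they could count as higher or unchanged against this culture, never as lower. The same genes are bound in this way at 105 and 300 minutes, as is HOXD9, also listed at 0 there. Among the 19 HOX genes left by the filter at 10 FPKM, 4 counted as higher at 0 minutes and 6 as lower. At 105 minutes, a comparison also added after the values were seen, 19 of 28 were at least 2-fold above the asynchronous culture, against 16.7%, with 10 of 11 HOXA but 3 of 9 HOXC genes. The median log2 difference was 1.63 in HOXA, 0.59 in HOXC and 0.22 over all kept genes, and the HOXC median was 1.24 without the overlapping HOXC4, HOXC5 and HOXC6. At 300 minutes 7 of 28 were at least 2-fold higher than in the asynchronous culture, against 9.84%, and 5 were at least 2-fold lower, against 8.57%. The 5 were HOXA4, HOXC4, HOXC5, HOXC8 and HOXC9. These comparisons share the asynchronous column.

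Markers of the hepatocyte lineage moved with the same contrast. Of 10 hepatocyte markers, ALB, AFP and APOA1 among them, all 10 were kept. At 0 minutes 9 were at least 2-fold lower than in asynchronous cells, against 19.0% of all kept genes. The exception was HNF4A, at 694 and 947 FPKM, 1.36-fold apart. The sum of the 10 markers ran from 2425 FPKM at 0 minutes to 17309 FPKM in the asynchronous culture. Sums of 5 blood markers (12.5 to 66.0 FPKM) and of 5 stromal and endothelial markers (48.4 to 74.3 FPKM) were low in all 7 groups. None of these 10 was at 0 in every group. The blood sum was 56.4 FPKM at 0 minutes and 12.5 FPKM in the asynchronous culture, with CD79A at 27.3 and 0.65 FPKM. Of 4 kept blood markers 2 were at least 2-fold higher at 0 minutes and none was lower. Of 5 kept stromal and endothelial markers 2 were higher and 1 was lower. The shares of all kept genes were 14.1% higher and 19.0% lower. The part of these changes in the HOX values was not tested.

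Within HOXC the difference from the asynchronous culture followed position. At 0 minutes against the asynchronous culture the log2 difference was -2.28 for HOXC4, -2.05 for HOXC5, -1.77 for HOXC6, -1.01 for HOXC8, -1.17 for HOXC9, -0.47 for HOXC10, -0.20 for HOXC11, 1.36 for HOXC12 and 0.84 for HOXC13. The head end was thus lowest in mitotic cells relative to cycling cells, and the last pair was higher. After quantile normalization HOXC12 and HOXC13 were at 0.73 and 0.35, both under 2-fold. HOXC12 rested on 5.04 fragments at 0 minutes and 2.52 in the asynchronous culture. HOXC10 was at 0.12 after quantile normalization and HOXC11 at 0.06 with equal medians, so their sign is not settled. The rank correlation (Spearman) with paralogue number was 0.97 over the 9 genes. It was 0.89 over 6 genes without HOXC4, HOXC5 and HOXC6, 0.96 over 7 genes without the low HOXC11 and HOXC12, and 0.87 after quantile normalization. At 105 and 300 minutes against the same asynchronous values it was 0.90 and 0.80. In HOXA the corresponding value was 0.19 at 0 minutes over 11 genes (-0.06 after quantile normalization), 0.57 at 105 minutes and 0.68 at 300 minutes, with HOXA5 and HOXA6 among the higher genes in the middle of the cluster. These correlations are across genes of 1 cluster that share libraries, depth and neighbours, and they carry no p.

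**Figure D4:**
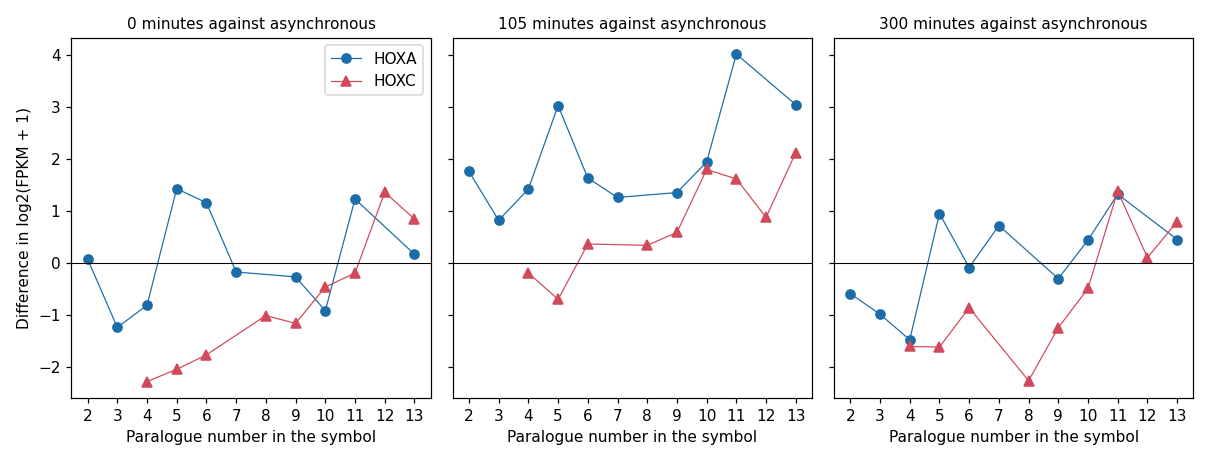
Points give the difference in log2(FPKM + 1) from the asynchronous culture (vertical axis) at 0, 105 and 300 minutes (panels, left to right) against paralogue number (horizontal axis) for HOXA (circles) and HOXC (triangles). HOXC rises along the cluster in the left panel, from -2.28 at HOXC4 to 1.36 at HOXC12 and 0.84 at HOXC13.

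Level followed position less closely than the 0 minute difference did in HOXC, but more closely in HOXA. The rank correlation of paralogue number with mean log2(FPKM + 1) was -0.62 in HOXA, where head-end genes tended to be higher. In HOXC it was -0.40, with -0.66 without HOXC4, HOXC5 and HOXC6, and 0.18 without HOXC11 and HOXC12. The rise from 0 to 80 minutes correlated with paralogue number at 0.46 in HOXA and at -0.47 in HOXC. The HOXC value was 0.20 without the overlapping HOXC4, HOXC5 and HOXC6, and -0.29 without HOXC11 and HOXC12. Its sign thus depended on which HOXC genes were taken.

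HOXB7 was the exception in its cluster. The gene, which is often high in tumours, had 39.6 FPKM at 0 minutes, 4.16 at 40, 23.9 at 80, 13.3 at 105, 7.19 at 165 and 9.04 at 300 minutes, with 2.26 FPKM in the asynchronous culture. Its highest value was thus in mitotic cells, 12.5-fold above the asynchronous culture. Its next value, at 40 minutes, was 7.87-fold lower, and the 80 minute value was up again 4.83-fold. These values correspond to 37.0, 4.47, 33.3 and, in the asynchronous culture, 3.94 fragments, with no replicate to show whether the up and down course would recur. Its neighbours HOXB6 and HOXB8 reached at most 0.89 and 1.03 FPKM. HOXB9 reached 3.36 FPKM at 105 minutes and was listed at 0 both at 300 minutes and in asynchronous cells. HOXB3 stayed between 0.22 and 1.31 FPKM, and HOXB13, a prostate gene that lies apart from the rest of the cluster, never passed 0.32 FPKM.

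The HOXD genes were near the floor in every group, and their sum was lowest in the asynchronous culture. HOXD1 was the highest, at 5.23, 7.85, 6.01, 4.57, 3.59 and 6.59 FPKM over the release and 0.93 FPKM in the asynchronous culture, the last worth 1 fragment. HOXD3 had 4.43, 5.67, 1.47, 1.27, 2.40 and 0.60 FPKM over the release and 0.68 FPKM in the asynchronous culture. HOXD10, HOXD11 and HOXD13, the limb genes at the tail end, reached 5.22, 4.8 and 2.58 FPKM in the release, and all 3 were listed at 0 in the asynchronous culture. At 0 and 40 minutes all of these genes were thus above the asynchronous culture. HOXD1 rested on 3 fragments at 0 minutes and 5.17 at 40 minutes, and HOXD10 on 2.12 and 4.97. No fragment number was available for HOXD3, HOXD11 and HOXD13.

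Paralogues at the same position therefore stood far apart. HOXA11 reached 152 FPKM and HOXD11 4.8 FPKM, and HOXA13 reached 76.6 FPKM and HOXD13 2.58 FPKM. The 250 bases before the annotated start of these 4 genes are shown to set the paralogues of a transcribed and a nearly silent cluster side by side. They are from RefSeq (GRCh38.p14), 5′ to 3′ on the gene's strand, with capitals marking GGGCGG, a GC box core, on either strand (CCGCCC) and TATAAA on either strand (TTTATA). HOXA11 is at chr7:27185233-27185482 (minus strand), HOXD11 at chr2:176107030-176107279 (plus), HOXA13 at chr7:27200092-27200341 (minus) and HOXD13 at chr2:176092471-176092720 (plus).
HOXA11: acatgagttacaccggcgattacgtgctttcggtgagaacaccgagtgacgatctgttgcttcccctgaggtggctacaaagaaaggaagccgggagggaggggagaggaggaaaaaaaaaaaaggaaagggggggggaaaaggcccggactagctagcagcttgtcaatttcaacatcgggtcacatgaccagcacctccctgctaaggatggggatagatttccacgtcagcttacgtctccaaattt
HOXD11: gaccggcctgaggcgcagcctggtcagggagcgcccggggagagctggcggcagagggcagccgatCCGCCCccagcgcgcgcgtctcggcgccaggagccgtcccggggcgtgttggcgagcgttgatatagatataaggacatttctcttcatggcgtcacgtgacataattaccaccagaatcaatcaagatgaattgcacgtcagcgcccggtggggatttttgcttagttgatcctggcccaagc
HOXA13: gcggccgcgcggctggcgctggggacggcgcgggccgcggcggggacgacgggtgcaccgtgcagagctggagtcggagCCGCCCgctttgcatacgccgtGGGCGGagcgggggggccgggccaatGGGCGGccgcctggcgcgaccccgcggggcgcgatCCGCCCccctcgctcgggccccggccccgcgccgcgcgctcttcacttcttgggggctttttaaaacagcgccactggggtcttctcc
HOXD13: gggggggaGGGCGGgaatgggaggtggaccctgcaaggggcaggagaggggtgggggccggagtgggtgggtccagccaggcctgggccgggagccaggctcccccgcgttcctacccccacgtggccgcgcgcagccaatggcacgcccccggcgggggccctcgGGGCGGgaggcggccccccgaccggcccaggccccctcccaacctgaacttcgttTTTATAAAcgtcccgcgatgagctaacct
CG pairs are common in the windows of both clusters. HOXA11 has 51.6% G and C and 11 CG pairs, HOXD11 61.6% and 23, HOXA13 78% and 40, and HOXD13 74% and 21. GC box cores number 0, 1, 4 and 2 in that order. HOXD13 holds TATAAA once on each strand, in overlapping letters, and the other windows hold none. Over the 18 members with a window, 9 HOXA genes had 16 windows with a median of 19 CG pairs. The 7 HOXD genes had 7 with a median of 23, and the median over all 35116 windows was 11. HOXA3 alone supplied several of the 16, with 0 to 26 CG pairs, so the HOXA figures are weighted toward that gene. GGGCGG on either strand was in 8 of 16 HOXA windows, 5 of 7 HOXD windows and 42.6% of all windows. TATAAA was in 4 of 16 HOXA windows, 1 of 7 HOXD windows and 10.7% of all. The sites TGANTCA and TGACGTCA were in no HOXA or HOXD window (6.57% and 1.65% of all), and TGATNNAT, a form of the joint HOX and PBX site, was in 1 HOXA and 1 HOXD window (6.47% of all). HOXC4 and HOXC5 share 1 window, HOXB genes had none, and a match of letters is a description of the sequence only.

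The noncoding genes of the clusters followed the coding genes. Of 25 listed long noncoding and microRNA genes, 19 were in the table and 15 were kept. Of the 15, 11 were at least 2-fold higher at 80 than at 0 minutes, against the 20.1% of all kept genes, and none was at least 2-fold lower, against 2.65%. At 300 against 105 minutes 11 of 15 were at least 2-fold lower, against 10.6%, and 13 of 15 had their release maximum at 80 or 105 minutes, against 35.6%. HOTAIRM1, a long noncoding RNA of the head end of HOXA, was the highest, at 401, 523, 1145, 1051, 499 and 211 FPKM over the release and 389 FPKM in the asynchronous culture. It was thus above the asynchronous value at 0 to 165 minutes and below it at 300 minutes. HOTTIP, at the tail end beyond HOXA13, had 7.40, 8.02, 19.1, 16.9, 5.04 and 3.10 FPKM over the release and 0.64 FPKM in the asynchronous culture. HOXA11-AS, antisense to HOXA11, had 26.0, 22.9, 90.4, 91.2, 53.0 and 27.6 FPKM over the release and 6.36 FPKM in the asynchronous culture, again below all release times. No source used here says how strand was used in counting, so reads of a gene and its antisense partner cannot be told apart.

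In HOXC, HOXC-AS2 rose 4.93-fold from 28.0 FPKM at 0 minutes to 142 FPKM at 80 minutes, and fell to 19.2 FPKM at 300 minutes. HOTAIR, a long noncoding RNA between HOXC11 and HOXC12 known for binding Polycomb proteins, had 2.49 to 6.35 FPKM, highest at 105 minutes, as low as HOXC11 and HOXC12. In HOXD, HAGLR had 4.45 to 7.79 FPKM and was 1.05-fold apart between 0 and 80 minutes. In HOXB, HOXB-AS3 never passed 1 FPKM.

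Of the microRNA genes, MIR196A2, in HOXC, had the crest of its host cluster, with 63.7, 102, 174, 176, 62.4 and 39.9 FPKM over the release and 51.8 FPKM in the asynchronous culture. Its hairpin is 110 bases, so 1 step is worth 36.9 FPKM at 0 minutes and 24.8 FPKM at 80 minutes, and these values are a few fragments of the primary transcript rather than the mature RNA. MIR196B, in HOXA, had at most 29.1 FPKM, about the worth of 1 step at that time. MIR10B and MIR615 were above 0 in 1 group each. The mature 5p forms of the miR-196 genes are shown because the family is known for targeting HOX messages, HOXB8 among them. The seed, bases 2 to 8, is in capitals and is the same in both, and the single difference is A12C, counted from 1 at the 5′ end with miR-196a first. The sequences are from RefSeq (GRCh38.p14), with miR-196a from MIR196A2 at chr12:53991762-53991783 (plus) and miR-196b at chr7:27169528-27169549 (minus).
hsa-miR-196a-5p: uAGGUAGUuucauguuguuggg
hsa-miR-196b-5p: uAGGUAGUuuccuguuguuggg

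Genes that act with or on the clusters are given as counts beside the share over all kept genes, which is 20.1% for at least 2-fold higher at 80 than at 0 minutes, 10.6% for at least 2-fold lower at 300 than at 105 minutes and 35.6% for a release maximum at 80 or 105 minutes. Of 10 kept TALE genes, the DNA-binding partners of HOX proteins, none was 2-fold apart between 0 and 80 minutes, 4 were at least 2-fold lower at 300 than at 105 minutes, and 4 had their maximum at 80 or 105 minutes. MEIS1, a partner of HOXA9 in leukaemia, climbed from 33.6 FPKM at 0 minutes to 109 FPKM at 165 minutes. Of 30 Polycomb genes, 10 were at least 2-fold higher at 80 than at 0 minutes, 7 at least 2-fold lower at 300 than at 105 minutes, and 22 had their maximum at 80 or 105 minutes, a larger share than over all kept genes. BMI1, a core subunit of Polycomb complex PRC1, had 520, 516, 1153, 1499, 936 and 385 FPKM over the release and 587 FPKM in the asynchronous culture. EZH2, the H3K27 methyltransferase, had 120 FPKM at 0 minutes, 195 at 80 and 504 FPKM in the asynchronous culture, above every release time. Of 17 genes of the MLL and trithorax group and the H3K27 demethylases, 2 were at least 2-fold higher at 80 than at 0 minutes (20.1% of all kept genes), 1 was at least 2-fold lower at 300 than at 105 minutes (10.6%), and 5 had their maximum at 80 or 105 minutes (35.6%). KDM6B, an H3K27 demethylase, had 846 FPKM at 0 minutes and between 640 and 1320 FPKM at the later times, with 247 FPKM in the asynchronous culture.

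Inputs of the clusters in the embryo are retinoic acid and CDX proteins. Of 15 kept genes of that list, 4 were at least 2-fold higher at 80 than at 0 minutes (20.1% of all kept genes), 4 at least 2-fold lower at 300 than at 105 minutes (10.6%), and 6 had their maximum at 80 or 105 minutes (35.6%). CYP26B1, which degrades retinoic acid, had 321, 464, 754, 864, 357 and 94.9 FPKM over the release and 397 FPKM in the asynchronous culture. CDX2, a direct activator of HOX genes in the embryo, peaked earlier, with 241, 339, 249, 246, 147 and 61.1 FPKM over the release and 33.8 FPKM in the asynchronous culture.

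Genes next to the clusters had various courses. Of 16 kept neighbours, 5 were at least 2-fold higher at 80 than at 0 minutes (20.1% of all kept genes), 1 was at least 2-fold lower at 300 than at 105 minutes (10.6%), and 7 had their maximum at 80 or 105 minutes (35.6%). Beyond HOXA, SKAP2 had 27, 28.2, 34.5, 40.7, 53.8 and 52.6 FPKM over the release and was thus higher late than at the crest, and HIBADH likewise ended at 66.1 FPKM from 34.5 FPKM at 0 minutes. EVX1, the homeobox gene at the tail end of HOXA, reached 11.7 FPKM at 105 minutes. Beyond HOXC, CALCOCO1 had 112 FPKM at 0 minutes and 457 FPKM at 80 minutes but remained at 252 FPKM at 300 minutes. LNPK and MTX2, beside the nearly silent HOXD genes, had 139 and 100 FPKM at 80 minutes.

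Other homeobox genes were also followed. Of 17 kept, 9 were at least 2-fold higher at 80 than at 0 minutes (20.1% of all kept genes), 9 at least 2-fold lower at 300 than at 105 minutes (10.6%), and 13 had their maximum at 80 or 105 minutes (35.6%). DLX2, a gene of forebrain and jaw, had 578, 723, 2019, 1776, 730 and 173 FPKM over the release and 22.3 FPKM in the asynchronous culture. MSX1, a gene of jaw and tooth, had 27, 31.7, 108, 189, 74.6 and 15 FPKM over the release and 16.2 FPKM in the asynchronous culture. The lists were compared by their counts alone, and no difference between lists was tested.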

How the data were processed

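Per the labels' protocols, EU-labelled RNA of HUH7 cells was tagged with biotin, pulled down, freed of ribosomal RNA and sequenced as stranded libraries. The authors deposited FPKM values for RefSeq transcripts, per the file headers, in 7 pooled columns, 1 for each group. Bowtie2 2.2.9, TopHat, bedtools, bcl2fastq and the build hg19 appear in the submitters' processing notes. Pooling, use of strand and background subtraction are not stated there. The unlabelled and spike-in samples of the 32 listed were not analysed here.

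The table held 48205 transcripts, 47127 of which matched a RefSeq symbol (GRCh38.p14, used for names), giving 24242 genes. Distinct value vectors of a gene were averaged, from mRNAs alone for HOX genes. Several vectors entered for 4 HOX genes. A gene was kept at 1 FPKM or more in 3 or more groups (22940 genes). Differences were taken on log2(FPKM + 1), and a gene was counted when at least 2-fold apart, over 9 planned and 2 added comparisons. The design foresaw limma on values per library, which could not be run on 1 pooled value per group. One gene counted among the members is not reported here on its own. The members and lists were chosen with earlier results of these data known. Values in all groups are given for the highest genes of each cluster and those with the largest folds, and the rest by range, though more HOX genes are named here than that rule takes. Alternatives were a pseudocount of 0.1 FPKM, quantile normalization, equal medians, no filter, a filter at 10 FPKM, the highest vector of a gene and, added after seeing the data, members that overlap no other. Spans, also used for the overlaps, are from GENCODE 29. Fragment numbers come from steps in low FPKM values, and cover counting error only, since fragments that carry no molecular identifier may be copies of 1 molecule. Python 3.11.15, pandas 2.3.3, numpy 2.4.6 and scipy 1.17.1 were used.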

Additional observations from a re-analysis of the deposited data

How the results depend on the processing

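The release maximum at 80 or 105 minutes held for all HOXA and HOXC genes under the scalings and the highest-vector alternative. No median or gene difference of at least 2-fold changed sign under the alternatives run. Smaller ones did, 9 medians (largest 0.76 on the log2 scale, HOXB at 300 against 165) and 21 gene differences (largest 0.47). Of the counts recomputed, 26 moved by more than 1.5 times and 114 did not. With the filter at 10 FPKM, which left 19 HOX genes, the genes at least 2-fold higher numbered 4 at 0 minutes against asynchronous (11 before), 2 at 40 against 0 (4), 0 at 105 against 80 (1), 1 at 300 against 0 (3) and 2 at 300 against asynchronous (7), and the lower genes 1 at 40 against 0 (2), 0 at 80 against 40 (2), 0 at 80 against 0 (3) and 3 at 300 against 0 (8). With equal medians the higher genes numbered 1 at 40 against 0 and 10 at 80 against 40 (16 before), and the lower genes at 0 against asynchronous 3 (6). Quantile normalization gave 9 higher at 80 against 40, 3 higher at 105 against 80, and 3 lower at 0 against asynchronous. A pseudocount of 0.1 FPKM gave 3 higher and 2 lower at 105 against 80 (1 and 0 before), and no filter gave 2 higher there. Both settings gave 4 lower at 40 against 0, and no filter 5 lower at 80 against 0. Each of these 2 and quantile normalization gave 1 higher at 165 against 105 (0 before). Without the overlapping HOXC4, HOXC5 and HOXC6, 3 were lower at 0 against asynchronous and 3 at 300 against asynchronous (5 before). From 0 to 80 minutes the count of higher genes was 14 to 18 under every alternative (17 as reported), and quantile normalization gave the 14, with HOXA2 and HOXC9 among those under 2-fold. The median log2 difference of all genes over that interval was 0.31 as deposited, -0.07 after quantile normalization and -0.06 with equal medians. Depth limits the HOXB and HOXD genes, where most values of the genes with a known span are at most a few fragments. No paired analysis was possible because the columns are pooled by group, and for the same reason no sample could be left out.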
